A study of Mus musculus with 3 samples.

Results

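The islands described here are short stretches of the mouse genome that interrupt lamina-associated domains (LADs). They were taken as the autosomal gaps of 25 to 200 kb between neighbouring domains of the LAD list labelled Dam-Lamin A. Of 1985 such gaps of any length between 2004 autosomal domains, 725 were islands, while 426 gaps were shorter (called breaks below) and 834 were longer. The islands covered 63.5 Mb in total, which is 2.63% of the autosomal span. Of these, 670 held at least 20 measured fragments and are called measured islands, 53 held no fragment at all and 2 held fewer than 20. Because the list was made from the same kind of data that are described inside the gaps, low signal in an island is part of how it was chosen. The signal levels are therefore given as a description, with no test.

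The nuclear lamina is a mesh of filament proteins under the inner nuclear membrane, and LADs are long chromatin segments that contact it. LADs are known to be poor in genes, weakly transcribed and late in replication, whereas the stretches between them hold most active genes. In DamID the protein under study carries Dam, a bacterial methyltransferase that marks the adenine of nearby GATC sequences. Fragments between methylated GATC sites are then amplified and sequenced, and unfused Dam, which methylates open chromatin readily, serves as the reference.

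The cells were mouse embryonic fibroblasts of the C57BL/6 strain with a wild type genotype, in 3 groups of 1 sample each. All were transduced with a murine retrovirus and grown in DMEM High with serum. The groups received Dam-Lamin A, a fusion to a filament protein of the lamina, Dam-Lap2b, a fusion to a protein of the inner nuclear membrane, or Dam Only, the unfused enzyme. The proteins were thus expressed from a viral cassette in addition to the cells' own, and no replicate gives the error of any difference between the profiles.

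For each fusion a profile of log2 values over 6415372 GATC fragments and a LAD list were used, and both profiles had the form of a ratio of fusion reads to the reads of 1 common reference. That reference is presumed to be the Dam Only library, of which no separate file was used here. Whole reads recovered from the ratios summed to 139312640 for the Dam-Lamin A sample, 151530928 for that of Dam-Lap2b and 153465563 in the reference, each a lower bound. Profiles and lists went together crosswise in these files, so each is named only for its label, as the Lamin A or Lap2b profile and the Lamin A or Lap2b list. In gaps of the Lap2b list chosen by the same rule, of which 702 could be measured, both profiles gave other levels. The median was −0.48 in the Lamin A profile and 0.055 in the Lap2b profile, against −0.71 and −0.30 in the islands of the Lamin A list. The median drop below the flanking domains was −1.35 and −0.78 there, against −1.17 and −0.98, so that each profile dropped further in the gaps of the list of the other label.

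The measured islands had a median length of 79.2 kb (quartiles 46.8 and 132.5 kb) and held a median of 190.5 fragments, from 21 to 572. They were set into domains of very unequal size. The shorter of the flanking domains had a median length of 187.5 kb and the longer one 564.6 kb, up to 7.25 Mb. Islands made up 36.5% of the gaps. In the order along the chromosomes they formed 435 runs in which successive gaps of the list were all islands, of which 263 were single islands and 172 held 2 or more, with 462 islands in the latter. Runs of 4 or more numbered 33.

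The 53 islands without a fragment stood apart from the rest in length. Of these, 48 were exactly 50000 bp long, and every island of exactly 50000 bp was of this kind. The other 5 measured 33 to 72 kb. Chromosomes 4, 7 and 14 held 30 of the 53. In 47 cases the Lap2b list had the identical gap, and in no case did a domain of that list reach into the stretch. The flanks of these stretches were high, with medians of 1.47 in the Lamin A profile and 1.34 in the Lap2b profile, and the lowest flanks were 0.21 and 0.12. No signal was measured in these stretches, so they carry no information on contact with the lamina. They also set the longest run. A series of 7 islands on chromosome 7 (7056579 to 10221903, mm9) held 6 of them, and its only measured member (7056579 to 7254117) had means of 0.13 and 0.46. With domains joined across stretches without fragments, 672 islands remained.

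**Figure D1:**
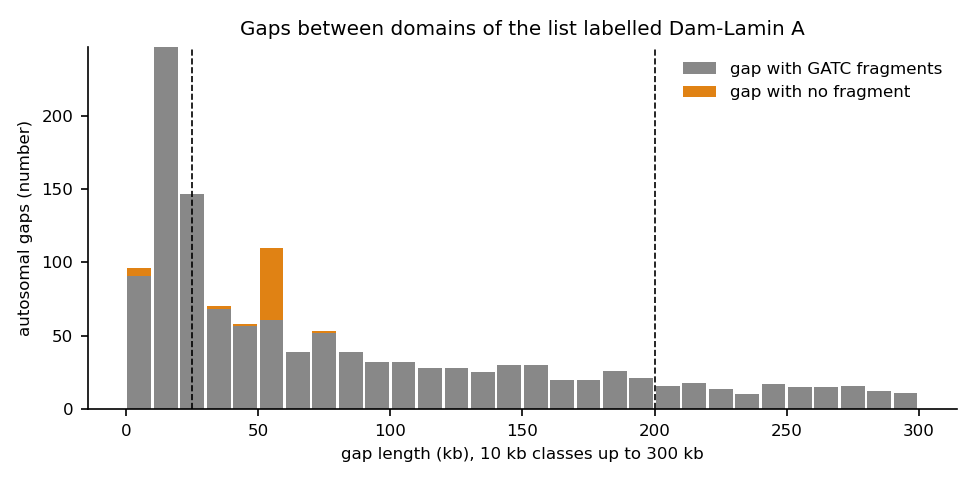
Number of autosomal gaps between domains of the Lamin A list (y axis) by gap length in 10 kb classes up to 300 kb (x axis), with gaps that hold GATC fragments and gaps without any shown in separate colours. Gaps without a fragment pile up at 50 kb, where 48 of them have a length of exactly 50000 bp.

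Inside the islands, the signal was low in both profiles but did not fall to 1 common level. The median of the island means was −0.71 in the Lamin A profile (quartiles −1.09 and −0.24, range −2.15 to 2.14). In the Lap2b profile it was −0.30 (quartiles −0.57 and −0.04, range −1.69 to 1.70). The outer 50 kb of the flanking domains had medians of 0.53 and 0.69 in the same profiles. Windows of 50 kb along the autosomes, 47968 in number, had medians of 0.23 and 0.38. The islands thus sat below the genome's median in both profiles, and their flanks above it.

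Of the 670 measured islands, 573 (85.5%) had a mean below 0 in the Lamin A profile, against 45.8% of autosomal windows. In the Lap2b profile 525 (78.4%) did, against 42.4% of windows. Both profiles were below 0 in 501 islands (74.8%, windows 40.7%), and neither was in 73 (10.9%, windows 52.5%). The Lamin A profile alone was below 0 in 72 islands (windows 5.11%), and the Lap2b profile alone in 24 (windows 1.67%). These shares describe how the members were chosen and support nothing further. Over the 670 islands the means in both profiles had a Spearman rho of 0.73, a description of values that share a reference library, fragments and length.

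The drop from flank to island was present in nearly every island. The dip, the island mean minus the mean of the outer 50 kb of both flanking domains, had a median of −1.17 (quartiles −1.56 and −0.76) in the Lamin A profile and −0.98 (−1.27 and −0.72) in the Lap2b profile. Both profiles dipped in 655 islands (97.8%), as they did in 98.5% of all 1892 measured autosomal gaps. A dip of 1 log2 unit or more was found in 403 islands (60.1%) in the former profile and in 325 (48.5%) in the latter, against 70.3% and 65.7% of all gaps. By median, islands were the shallowest of the gap classes. Breaks under 25 kb had median dips of −1.38 and −1.36, and gaps over 200 kb had −1.34 and −1.20. In level, breaks had medians of −0.61 and −0.44, and long gaps had −0.88 and −0.62. The islands lay between them in the Lamin A profile and above both in the Lap2b profile.

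Near the limits of the length rule, values varied widely from gap to gap. So few gaps cannot show whether values change with length, which is described by length class below. The shortest islands, on chromosome 17 (41004641 to 41029650) and chromosome 2 (138081257 to 138106300), had means of −1.82 and −1.50 in the Lamin A profile and −1.14 and −0.85 in the Lap2b profile. The third, on chromosome 18 (14109483 to 14134661), had −0.68 and −0.55. The gaps just under 25 kb, on chromosomes 3, 10 and 14, had −0.67, −1.88 and −0.20 in the former profile and −0.04, −0.87 and −0.05 in the latter. At the other end, the longest islands lay on chromosome 10 (87780676 to 87980055, 199.4 kb), chromosome 5 (90607645 to 90806112) and chromosome 7 (7056579 to 7254117, named above). Their means were −0.82, −1.60 and 0.13 in the Lamin A profile and −0.67, −1.08 and 0.46 in the Lap2b profile. The gaps just over 200 kb, on chromosomes 2, 7 and 6, had −0.76, −1.29 and −0.83, and −1.01, −1.21 and −0.43. Values inside and outside either limit overlapped.

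The Lap2b profile lay above the Lamin A profile in most islands, a trait that other gaps and the islands' own flanks had in part. It was the higher in 552 islands (82.4%), against 55.1% of windows, 57.7% of breaks and 75.3% of gaps over 200 kb. It was also the higher in the flanks of 500 islands (74.6%). It was higher by more than 0.5 log2 units in 268 islands (40%), against 13.1% of windows, 28.8% of breaks and 17.3% of gaps over 200 kb, and in the flanks of 102 islands (15.2%). The median difference was 0.39 in islands, 0.19 in their flanks, 0.13 in breaks and 0.24 in gaps over 200 kb. The Lamin A profile was higher by that much in 27 islands (4.03%, windows 10.7%). With 1 sample per fusion this is a difference between 2 libraries, and how far it would vary between cell preparations is unknown. The share with Dam-Lap2b over 0.5 higher depended on the averaging. It was 72.2% when fragments were weighted by their length, where 43.8% of windows also passed. With the same weights 90.4% of islands were below 0 in the Lamin A profile (windows 50.1%) and 63.7% in the Lap2b profile (windows 40.4%).

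Fragment length moved with that difference. Over all autosomes, the Lap2b profile minus the Lamin A profile was −0.23 for fragments under 100 bp, −0.27 from 100 bp to under 250 bp, −0.05 from there to under 500 bp, 0.41 from there to under 1000 bp and 0.78 for longer ones. In islands the same classes gave −0.02, 0.03, 0.28, 0.82 and 1.17. The islands exceeded the autosomes in all 5 classes, by 0.21, 0.30, 0.34, 0.41 and 0.39. Much of this was also present in their flanks, where the classes gave −0.11, −0.16, 0.07, 0.63 and 1.14. The islands exceeded their flanks by 0.09, 0.19, 0.21, 0.19 and 0.03, so that for the longest fragments the difference was nearly the same in both. The dip changed less with fragment length. The mean of fragments in islands minus that in flanks was −1.03, −1.26, −1.23, −1.09 and −0.91 in the Lamin A profile, from the shortest class to the longest. The values of the Lap2b profile were −0.93, −1.07, −1.02, −0.91 and −0.88.

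**Figure D2:**
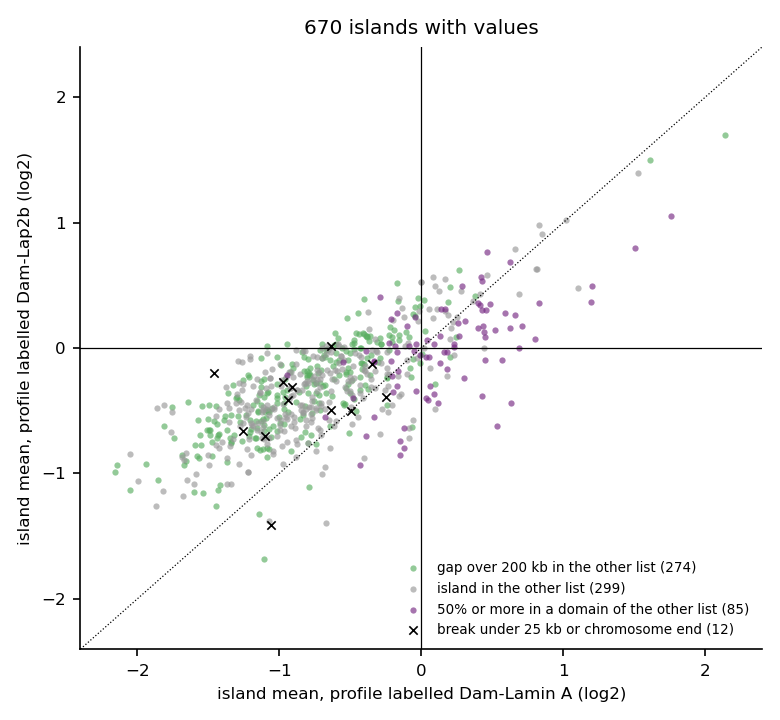
Mean log2 value of each of 670 measured islands in the Lamin A profile (x axis) and in the Lap2b profile (y axis), 1 point per island, coloured by what the Lap2b list holds at the same place. Most points lie at negative values on both axes, and the 85 islands mostly inside a domain of the other list (medians 0.14 and 0.01) lie around 0.

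By a minimum of 50% of the length, islands lay in domains of the Lap2b list about as often as all measured gaps did. At least 50% of the length was inside a domain of that list for 85 islands (12.7%), against 12.1% of all measured gaps. At least 90% was for 40 islands (5.97%, all gaps 8.83%), and the whole length was for 36 (all gaps 8.51%). No base was in such a domain for 356 islands (all gaps 45.2%). Sorted by what that list had at the same place, 299 islands (44.6%) met a gap of 25 to 200 kb and 274 (40.9%) met a gap over 200 kb. Of the rest, 85 lay mostly in a domain, 10 met a gap under 25 kb and 2 lay outside the span of its domains. The same sorting of all gaps is not given here, so these counts show nothing particular to islands.

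Islands that were gaps of like size in both lists had medians of −0.77 and −0.34 in the Lamin A and Lap2b profiles, dips of −1.35 and −1.15 and a median difference of 0.39. Where the other list had a gap over 200 kb, so that at least 1 flanking domain was absent or cut back in it, the medians were similar at −0.80 and −0.33. The flanks there were lower, at 0.21 and 0.52 against 0.64 and 0.81, and the dips were accordingly shallower, at −1.03 and −0.86. The shorter flank was also shorter, with a median of 155221 bp against 228050 bp. Of these 274 islands, 140 (51.1%) had the Lap2b profile higher by more than 0.5. This held for 120 (40.1%) of the 299 islands that met a gap of like size, and for 13.1% of autosomal windows.

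The 85 islands lying mostly in a domain of the Lap2b list were the ones nearest to domain-like signal. Their medians were 0.14 in the Lamin A profile and 0.01 in the Lap2b profile, with 32 and 40 of the 85 below 0. Their flanks were high, at 0.87 in each profile, and their median dips were −0.73 and −0.85. The median difference was −0.16. The Lap2b list went with the Lamin A profile in these files, so choosing places inside its domains chooses places where that profile is relatively high, and the order of the profiles here supports nothing. The Lamin A profile was higher by more than 0.5 in 19 of the 85 and the Lap2b profile in 2.

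Island edges met edges of the other list about as often as those of all gaps did. Of 1340 edges of measured islands, 47 (3.51%) fell on the identical base in both lists and 350 (26.1%) lay within 5 kb of an edge of the Lap2b list, while 483 (36.0%) lay more than 50 kb from any. Over the 3784 edges of all measured gaps these shares were 3.73%, 26.0% and 35.6%. The median distance was 23.4 kb for islands and 19.8 kb for all measured gaps.

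Signal across these edges was followed in 5 kb steps. In the Lamin A profile the median over edges fell gradually within the domain, from 0.66 at 45 to 50 kb from the edge to 0.16 in the last 5 kb. It went on to −0.59 in the first 5 kb of the island and to −0.88 at 5 to 10 kb. In the Lap2b profile it stayed between 0.83 and 0.60 up to the edge, was 0.67 in the last 5 kb and −0.41 in the first 5 kb inside. At edges of the gaps of 25 to 200 kb in the Lap2b list the profiles exchanged these shapes. There the Lamin A profile went from 0.91 in the last 5 kb of the domain to −0.65 in the first 5 kb of the gap, and the Lap2b profile from 0.71 to 0.22 and on to 0.08 at 5 to 10 kb. The sharper step thus belonged to the profile of the other label at the edges of either list, so the steps give no comparison of the proteins. Further in, the Lap2b profile was −0.26 at 20 to 25 kb and −0.16 at 40 to 45 kb, and the Lamin A profile was −0.83 and −0.64 there. Only longer islands reach such distances, so the later steps describe fewer edges, 949 at 20 to 25 kb and 574 at 40 to 45 kb.

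**Figure D3:**
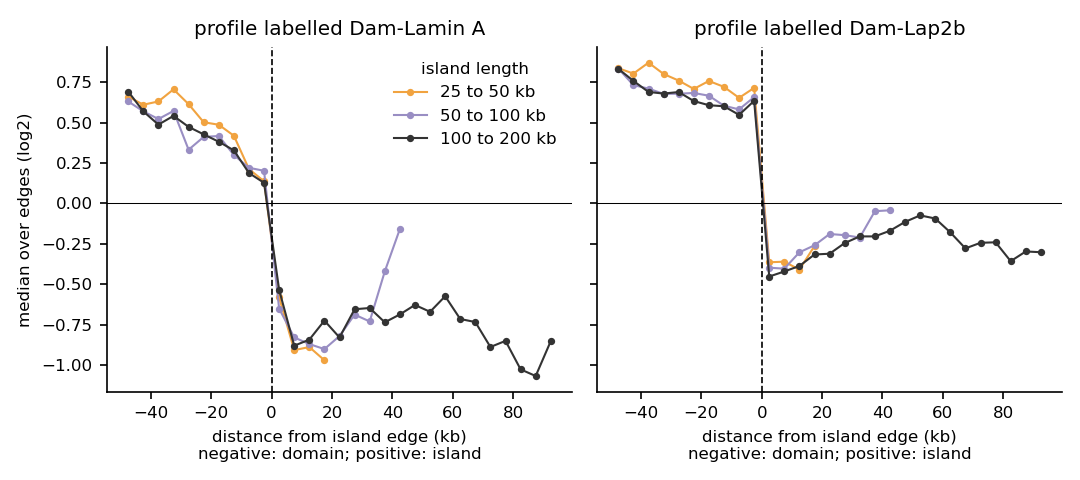
Median log2 value over island edges (y axis) by distance from the edge in kb (x axis, 5 kb steps, negative inside the domain and positive inside the island), for 3 classes of island length, with the Lamin A profile in the left panel and the Lap2b profile in the right. Over all islands the Lap2b profile steps from 0.67 to −0.41 at the edge and the Lamin A profile declines from 0.66 to −0.88 over a longer stretch, an order that is exchanged at edges of the Lap2b list.

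The lowest 10 kb stretch of an island was picked as its minimum, so that it lies below the mean follows from the choice. The lowest 10 kb stretch had a median of −2.03 in the Lamin A profile and −1.12 in the Lap2b profile, and the highest 10 kb stretch had 0.35 and 0.41. The lowest stretch lay at a median of 47.9% and 43.0% of the way from the nearer edge to the centre. These values were not set against a random placement, so they show no preferred place. The lowest stretches of both profiles lay a median of 7 kb apart. This distance was 4, 7 and 14 kb in islands of 25 to 50, 50 to 100 and 100 to 200 kb, and shorter islands leave less room for it. Both profiles share the reference reads at these places.

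By length, the shortest islands were the lowest on average. Islands of 25 to 50 kb (188), 50 to 100 kb (222) and 100 to 200 kb (260) had medians of −0.83, −0.72 and −0.64 in the Lamin A profile. In the Lap2b profile they were −0.40, −0.30 and −0.23. The quartiles overlapped widely, from −1.18 to −0.35 in the shortest class and from −0.99 to −0.23 in the longest in the former profile. Dips became shallower with length, at −1.33, −1.15 and −0.997 in the Lamin A profile and −1.14, −0.93 and −0.83 in the Lap2b profile. The share of islands with a mean below 0 in the Lap2b profile went from 92.0% (173 islands) over 75.7% (168) to 70.8% (184). In the Lamin A profile it was 89.4%, 83.8% and 84.2%. Spearman's rho with length over the 670 islands was 0.12 and 0.16 for the means and 0.18 and 0.28 for the dips, in the Lamin A and Lap2b profiles.

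Longer islands were more mixed inside. Their lowest 10 kb stretch had medians of −1.67, −1.97 and −2.23 in the Lamin A profile from the shortest class to the longest, and their highest had −0.17, 0.24 and 0.88. In the Lap2b profile the lowest stretches had −0.84, −1.10 and −1.32 and the highest 0.06, 0.41 and 0.89. A longer island holds more 10 kb stretches, which by itself widens the range between lowest and highest. Islands of 25 to 50 kb were inside a domain of the other list for at least 50% of their length in 36 cases (19.1%), against 20 (7.69%) of those of 100 to 200 kb. Islands wholly inside such a domain numbered 25, 9 and 2 from the shortest class to the longest.

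By flanking domain, the median level inside the island varied little up to 1 Mb in the Lamin A profile. In the Lap2b profile it was lowest beside domains under 200 kb and showed no steady order. The difference between the profiles was larger beside longer domains. The shorter flank was under 200 kb for 364 islands, 200 to 500 kb for 210, 500 kb to 1 Mb for 72 and 1 Mb or more for 24. The medians were −0.72, −0.67, −0.73 and −1.01 in the Lamin A profile and −0.36, −0.21, −0.26 and −0.34 in the Lap2b profile. The Lap2b profile was higher by more than 0.5 in 128 (35.2%), 86 (41.0%), 37 (51.4%) and 17 (70.8%) islands of these classes. The last class holds 24 islands only. Spearman's rho of the shorter flank's length over all 670 was −0.05 with the mean in the Lamin A profile, 0.07 with that in the Lap2b profile and 0.13 with their difference.

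In the Lap2b profile the flanks themselves were higher beside longer domains, while in the Lamin A profile the order was less regular. The medians of the flanks were 0.49, 0.57, 0.52 and 0.70 in the Lamin A profile and 0.61, 0.75, 0.78 and 0.90 in the Lap2b profile. Dips were −1.11, −1.17, −1.32 and −1.36 in the former and −0.95, −1.01, −1.15 and −1.04 in the latter.

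**Figure D4:**
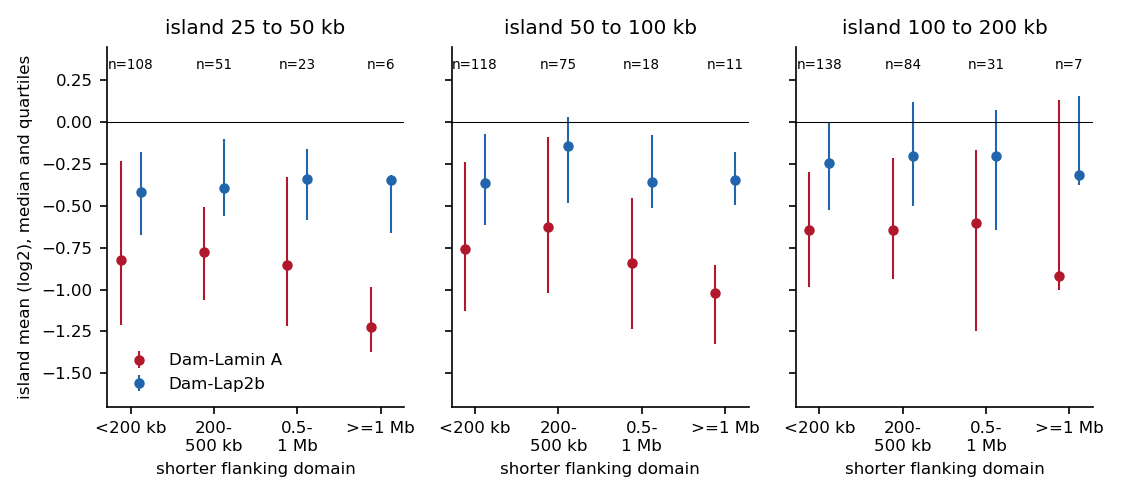
Median island mean on the log2 scale with quartiles (y axis) by length of the shorter flanking domain (x axis), in 1 panel for each of 3 island length classes, with the Lamin A and Lap2b profiles in separate colours. The Lap2b profile lies above the Lamin A profile on the whole (medians −0.30 and −0.71 over all islands), and the quartiles overlap between the flank classes.

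The reads behind the ratios were also compared between islands and flanks. The median island had 41.7 reads per kb in the Dam-Lamin A library against 51.6 in its flanks, and 60.3 against 66.3 in the Dam-Lap2b library. In the reference library it had 76.5 against 39.3. Per island, the median log2 ratio of island to flank was −0.32 with reads of Dam-Lamin A, −0.15 with those of Dam-Lap2b and 0.97 with those of the reference. Fusion reads were below the flank in 506 islands (75.5%, all gaps 77.3%) for Dam-Lamin A and in 458 (68.4%, all gaps 72.4%) for Dam-Lap2b. Reference reads were above the flank in 658 (98.2%, all gaps 98.7%). By these medians the rise of the reference reads was larger than the fall of the reads of either fusion. Long gaps had −0.36, −0.23 and 1.22 for the same ratios and breaks −0.25, −0.18 and 1.23. The gaps were set by a list made from the same kind of data. A high reference beside low fusion reads is thus part of how they were chosen, and supports nothing further.

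The excess of the reference was larger in short islands than in long ones. Its median log2 ratio to the flank was 1.17 at 25 to 50 kb, 0.98 at 50 to 100 kb and 0.84 at 100 to 200 kb. The fusions did not follow this order. Dam-Lamin A had −0.31, −0.34 and −0.33 and Dam-Lap2b had −0.15 in each class. In islands mostly inside domains of the other list the values were −0.08 in Dam-Lamin A reads and −0.26 in Dam-Lap2b reads. Places inside those domains were places where the Lamin A profile is relatively high, so this order supports nothing.

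The density of GATC fragments in islands was close to that elsewhere. Islands held a median of 24.1 fragments per 10 kb against 25.3 in their flanks, 24.2 in gaps over 200 kb and 24.8 in autosomal windows, and 251 islands (37.5%, all gaps 37.1%) had more than their flanks. Among islands, those with more fragments per 10 kb had higher means, with a Spearman's rho of 0.38 in the Lamin A profile and 0.21 in the Lap2b profile (670 islands that share their libraries).

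The lowest islands, ranked by the average of both profiles, lay on chromosomes 6, 13 and 3. The lowest was chromosome 6, 6496838 to 6536484 (39.6 kb), with −2.05 in the Lamin A profile and −1.13 in the Lap2b profile, between flanks at 0.06 and 0.43. Its reference had 170.4 reads per kb, more than in the median island, against 41.0 in its flanks. Reads of both fusions were also above the flanks, at 41.9 against 36.9 for Dam-Lamin A and 71.8 against 56.8 for Dam-Lap2b. Next came chromosome 6, 58775207 to 58809578, with −2.15 and −0.99 and 215.7 reference reads per kb against 49.6 in its flanks. There Dam-Lamin A had 39.6 against 55.0 and Dam-Lap2b had 94.9 against 64.8. A low ratio is thus not always a place of few fusion reads. Both of these islands lie on a chromosome whose 48 measured islands had the deepest median dips of any autosome, −1.41 and −1.16. The others were chromosome 13, 112194262 to 112286593 (−1.87 and −1.26), chromosome 13, 77063019 to 77090363 (−2.14 and −0.94) and chromosome 3, 16078975 to 16130563 (−1.99 and −1.06). In all 5 the Lamin A profile was the lower, and at most 3.10% of the length lay in a domain of the other list. The annotation of this genome build was not used here, so the genes in these islands were not analysed here.

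The highest islands had signal like that of a domain. Chromosome 13, 117339996 to 117501429 (161.4 kb), averaged 2.14 and 1.70, above its flanks of 1.22 and 1.38, and no base of it lay in a domain of either list. Its reference was low, with 26.3 reads per kb. It is 1 of 15 islands (all gaps 1.48%) that lay above their flanks in the Lamin A profile and 1 of 3 (all gaps 0.159%) in the Lap2b profile. The next 3 held long stretches without fragments. On chromosome 2, 22347253 to 22407234 averaged 1.61 and 1.50 from 26 fragments that covered 15.9% of its length, with 50.2 kb empty. On chromosome 9, 112858782 to 112946739 averaged 1.53 and 1.40 with 16.7 kb empty, and on chromosome 2, 175253560 to 175374802 averaged 1.76 and 1.05 with 50.5 kb empty. The fifth, chromosome 2, 175598359 to 175645379 (1.51 and 0.80), lay wholly in a domain of the Lap2b list. Among all measured islands 13 held an empty stretch of over 5 kb.

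Islands in which the Lap2b profile stood highest over the Lamin A profile were all low in the latter. They were chromosome 13, 88924708 to 88974564 (−1.86 in Dam-Lamin A, −0.48 in Dam-Lap2b), chromosome 11, 111535944 to 111566115 (−1.81 and −0.45) and chromosome 4, 17776070 to 17826715 (−1.75 and −0.47). None of their length lay in a domain of the Lap2b list, as was so for 53.1% of all measured islands. In the opposite direction stood chromosome 11, 108743386 to 108846492 (0.54 and −0.62), chromosome 12, 57616808 to 57641996 (0.64 and −0.44) and chromosome 4, 128065804 to 128108811 (1.19 and 0.37). All 3 of the latter lay wholly in domains of the Lap2b list, as did 5.37% of all measured islands. That list went with the Lamin A profile in these files, so islands chosen for a relatively high Lamin A profile favour its domains. Their place there supports nothing.

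Among the 24 islands between domains of 1 Mb or more, the deepest dip on the average of both profiles was at chromosome 6, 106713098 to 106766221. This island of 53.1 kb lay between domains of 5.86 and 1.31 Mb. Its means were −1.14 and −0.35 while its flanks had 1.45 in each profile, which makes dips of −2.58 and −1.80. Further deep dips were at chromosome 6, 15658652 to 15750398 (means −2.05 and −0.84), chromosome 14, 117310428 to 117341859 (−1.09 and −0.76) and chromosome 6, 131230133 to 131377737 (−1.58 and −1.01). The fifth, chromosome 5, 58104442 to 58164304 (−1.02 and −0.56), separated domains of 3.51 and 4.99 Mb.

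**Figure D5:**
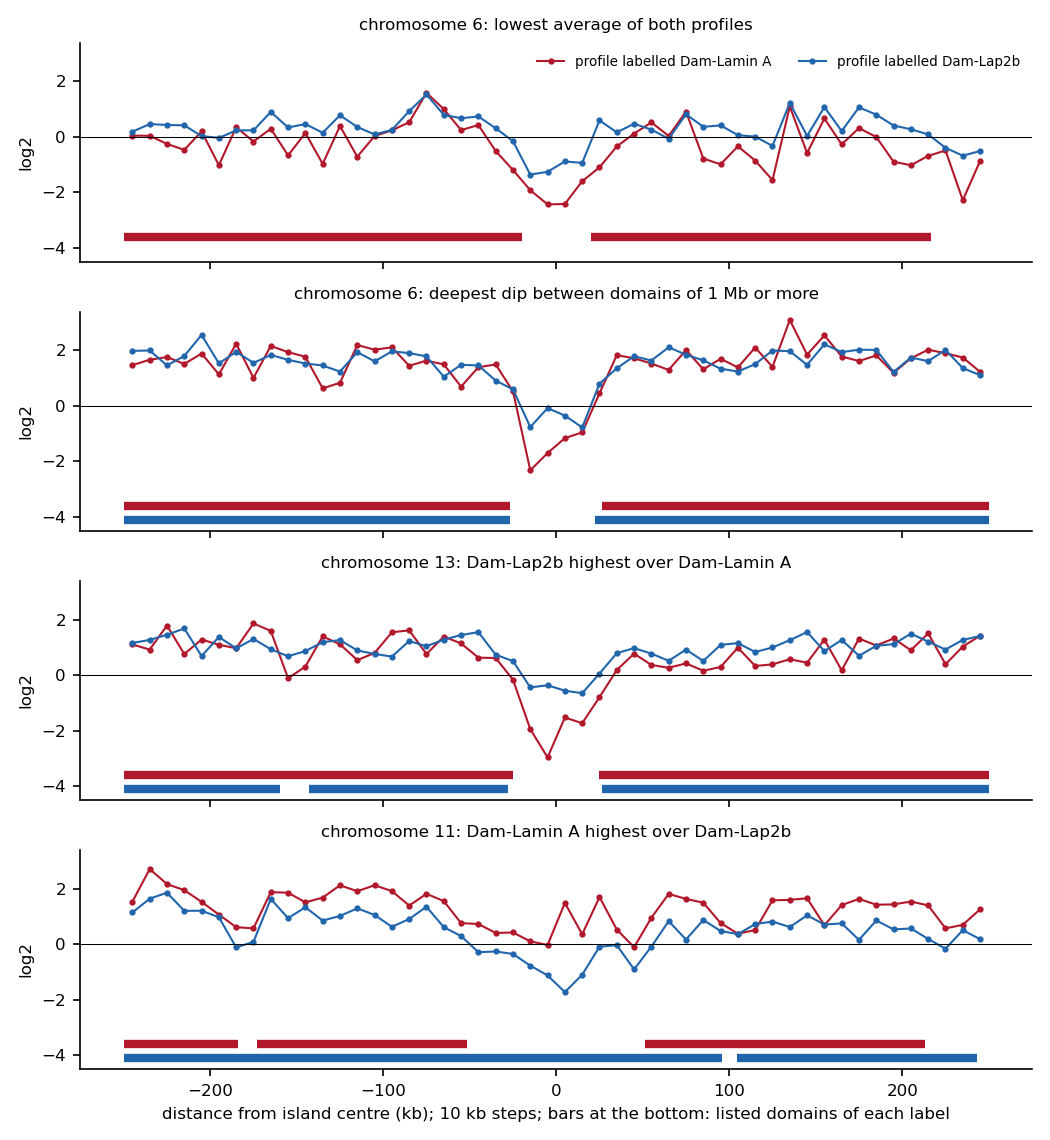
The Lamin A and Lap2b profiles in 10 kb steps (log2, y axis) within 250 kb of the centre of 4 named islands (x axis, distance from the island centre in kb), with bars at the bottom for the domains of both lists. In the upper panels both profiles drop inside the island, with the Lamin A profile the lower, and in the lowest panel (chromosome 11) the Lap2b profile drops to −1.73 inside a domain of the list of its own label while the Lamin A profile stays at −0.11 or above.

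The longest series with measured islands throughout, found once domains were joined across stretches without fragments, was chosen after its values had been seen. It held 7 islands on chromosome 2 between 77714269 and 83656039 (5.94 Mb), separated by domains of 135549 to 2958131 bp. From the first to the last, the Lamin A profile averaged −1.26, −1.09, −1.76, −1.35, −0.97, −1.10 and −1.65. The Lap2b profile averaged −0.33, −0.04, −0.67, −0.48, −0.35, −0.61 and −1.05. All 7 were below 0 in both profiles and lower in the Lamin A profile, by differences of 0.49 to 1.09.

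Chromosomes differed in how many islands they held and in how far the profiles separated in them. Islands numbered from 10 on chromosome 19 to 62 on chromosome 1, and made up 21.3% of all gaps on chromosome 19 and 48.6% on chromosome 4. Per 10 Mb they ranged from 1.71 on chromosome 19 to 4.18 on chromosome 13. These numbers include islands without a fragment, which were 11 of 53 on chromosome 4 and 2 of 49 on chromosome 13. The order of the chromosomes is therefore not that of measured islands alone. The median in the Lamin A profile went from −1.08 on chromosome 2 to −0.22 on chromosome 7. Medians of the Lap2b profile had a narrower range, from −0.46 on chromosome 18 to −0.20 on chromosome 11. The median difference was 0.70 on chromosome 4 and 0.01 on chromosome 7. The Lap2b profile was higher by more than 0.5 in 38 of 55 measured islands on chromosome 2 and 29 of 42 on chromosome 4, but in 3 of 28 on chromosome 7 and 0 of 16 on chromosome 18. These are counts within 1 pair of profiles, and chromosomes are not replicates.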

How the data were processed

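Per the labels, DNA adenine methylation was profiled by DamID and sequencing in 3 samples, 1 per group. Bowtie and mm9 are named per the submitters' processing notes; read counting, normalization and domain calling are not given in the sources used here. The authors deposited log2 values per GATC fragment, and LAD lists with start and end only. Coordinates are mm9. Starts in the files were taken as counted from 0, as is usual for the format, and gaps are printed as counted from 1. The files do not settle this, so the printed end of a gap may be off by 1 base. No gene or sequence of that build was used here.

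Gaps were taken between successive domains. A gap mean is the unweighted mean of the deposited log2 values of its fragments (minimum 20). The flank is the outer 50 kb of both neighbouring domains. Whole reads were recovered from both ratios, with constants of 0.085 and 0.022 and denominators up to 5000, for 99.997% of fragments. A common factor lowers them, so they are lower bounds. With 1 sample per group no test was run. The precision of a gap rests on its number of fragments. Steps were tested on simulated data.

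Named islands followed a rule. It took the 5 lowest and 5 highest by average, the 3 largest differences each way, the 3 longest, the 3 shortest and the 3 gaps nearest outside each limit. It also took the 5 deepest dips between domains of 1 Mb or more and the longest series. Members and lists were chosen with earlier results of these data known. Alternatives changed the averaging, the fragments used, the gap limits, the flank and the list. Python 3.11.15, numpy 2.4.6, pandas 2.3.3, numba 0.67.0, scipy 1.17.1 and matplotlib 3.10.9 were used.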

Additional observations from a re-analysis of the deposited data

Results flagged for a closer look

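Of 32 contrasts computed in both profiles, 3 pointed in opposite directions in the groups. Most of the 32 were dips of single named islands. Nearly all gaps dip in both profiles by the way they were chosen, so the count is no measure of agreement. None of these differences was tested, since each group had 1 sample.

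The first was the contrast by flanking domain. The median of island means between domains of 1 Mb or more minus the median where the shorter domain was under 200 kb was −0.29 in the Lamin A profile and 0.015 in the Lap2b profile. The former class held 24 islands, and the value in the latter profile was close to 0. Both values varied with the measure of the flanks, within the standard deviation of the contrast over chromosomes. With 24 islands in that class, few fall on any 1 chromosome, so this standard deviation is a loose limit and does not show the values to be stable. Classed by the longer flanking domain they were −0.10 and 0.13, and by the summed length of both domains (1.2 Mb or more minus under 400 kb) they were −0.18 and 0.07.

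The next was the contrast by fragment length inside islands. Fragments of 1000 bp or more averaged −0.84 relative to fragments under 100 bp in the Lamin A profile and 0.35 in the Lap2b profile.

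The last was the island on chromosome 2 that starts at 22347253. Its unweighted mean lay 0.070 above that of its flanks in the Lamin A profile and was at −0.079 relative to them in the Lap2b profile, with 26 fragments behind each value. The reads per kb were below those of the flanks in both fusions and in the reference, so no library alone gives the sign of a ratio. They were 76.2 against 936.3 in the flanks for Dam-Lamin A and 83.9 against 165.7 for Dam-Lap2b. The reference had 27.2 against 62.8. The flank value of Dam-Lamin A was far above the upper quartile of 64.7 over the flanks of all measured islands. Why the signs differed was not tested, and the island mean rests on few fragments.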

How the results depend on the processing

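Over 22 results and 115 alternatives, 86 values were labelled as the same, 28 as moved and 1 as changed in sign. The rule differed by kind of result. Medians and their differences were set against the standard deviation over chromosomes. Shares were set against a 95% binomial interval, which treats islands as independent. The number of islands was held to a fixed factor, and rho and fragment length to their sign only. Neither chromosomes nor islands are replicates, so the labels are a rough guide. Weighting fragments by length gave island medians of −0.93 (Dam-Lamin A) and −0.12 (Dam-Lap2b), a Dam-Lap2b dip of −0.90 and shares below 0 of 90.4% and 63.7%, where windows had 50.1% and 40.4%. It gave a median difference of 0.79, with Dam-Lap2b over 0.5 higher in 72.2% and Dam-Lamin A in 2.39%. Medians over fragments gave 78.8% and 67.6% below 0 and a Dam-Lap2b median of −0.23. Ratios of summed reads gave a Dam-Lap2b dip of −1.08, 81.8% below 0 in that profile, and shares of 51.5% and 6.72% for Dam-Lap2b and Dam-Lamin A over 0.5 higher. Without the outer 5 kb of each gap the former share was 44.98%.

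Gaps of the Lap2b list gave −0.48 with a dip of −1.35 in Dam-Lamin A. In Dam-Lap2b they gave 0.055, the change of sign, with a dip of −0.78 and 46.0% below 0, and shares of 54.0% and 0.997% for the differences. Flanks of 25 kb gave a Dam-Lamin A dip of −1.03, and whole flanking domains gave −1.52 and −1.22. With both flanks of 200 kb or more, 342 islands remained. Coverage by the other list was 5.97% at a minimum of 90% of the gap and 46.9% for any overlap. The cause of these changes was not tested. Leaving out islands with empty stretches and joining domains across gaps without fragments were chosen after seeing the data.

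No paired analysis was possible because each group had 1 sample. Depth is limited for gaps with few fragments, and the recovered reads are lower bounds. The profiles share a presumed reference.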

Other observations

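The Lap2b list had 755 autosomal gaps of 25 to 200 kb, 51 of them without a fragment. In the Lamin A list, stretches without a fragment also occurred among 5 breaks under 25 kb and 4 gaps over 200 kb, besides the 53 islands. With domains joined across breaks and across such stretches, the median length of the shorter flank became 219.2 kb and 37 islands had both flanks of 1 Mb or more. Within islands, fragments of 1000 bp or more averaged −1.06 in the Lamin A profile and 0.11 in the Lap2b profile, so that the mean of these fragments lay on either side of 0.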
